A study of Mus musculus with 48 samples.

Results

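The replication-dependent histone genes are the clustered genes that supply most of the histone protein laid down on newly copied DNA. Of the 24421 gene rows in each deposited table, 68 carry a symbol of this type (Hist1h to Hist4h), and these 68 were taken by symbol alone. They comprise 6 linker histone H1 genes, 18 H2A genes, 19 H2B genes, 12 H3 genes and 13 H4 genes. In the mouse annotation (GENCODE release M21, genome build GRCm38, also called mm10) 54 lie in the Hist1 cluster on chromosome 13, 10 in Hist2 on chromosome 3, 3 in Hist3 on chromosome 11, and the 1 Hist4 gene is on chromosome 6.

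Histones H2A, H2B, H3 and H4 form the core that DNA is wrapped around, and H1 binds the linker DNA between cores. Most messenger RNAs of the clustered genes end in a conserved stem-loop in place of a poly(A) tail, and the stem-loop binding protein SLBP holds that structure through processing, translation and decay. These genes are known to be read mainly in S phase, while replacement histones such as H3.3 come from unclustered genes with polyadenylated transcripts. Some clustered genes are also known to give polyadenylated transcripts in cells that have left the cell cycle.

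The study measured RNA from mouse astrocytes, glial cells that support neurons and synapses, in 48 bulk libraries. In cortex, hippocampus and olfactory bulb it followed postnatal days 1, 7 and 14 (P1, P7 and P14), with 3 libraries per group except 4 for cortex P14. At P28 it compared animals labelled Gabbr1 control with animals labelled Gabbr1 cKO, a conditional knockout of a subunit of the GABA-B receptor, with 4 and 4 cortex libraries, 2 and 4 hippocampus libraries, and 3 and 3 olfactory bulb libraries. Tamoxifen is named in the labels of both genotypes of the hippocampal and olfactory bulb libraries and of the 3 P28 cortex libraries of a second deposit, but not in those of the 5 earlier P28 cortex libraries. The driver of the deletion, the strain and the number of animals behind a library are not given in the sources used here, and no genotype is given for P1 to P14.

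Libraries held from 1773226 to 15008466 reads assigned to genes. Rn45s, the ribosomal RNA precursor, took 13.7% to 38.0% of them in 46 libraries, but 0.594% in YC152 (a hippocampal cKO library) and 0.476% in YC150 (an olfactory bulb control library). CPM below are therefore counts scaled to 1000000 gene reads without Rn45s, while "normalized reads" are the deposited values. Histone reads numbered 269 to 3448 per library outside YC152 and YC150. The summed level of 10 astrocyte markers was 7127 to 9378 CPM at P1 and 128942 to 139924 at P14 in cortex, and 2017 to 2931 and 43059 to 47719 in olfactory bulb. Gabbr1 checked the genotype labels: it stood at 1746, 1930, 1159 and 927 normalized reads in the cortex controls and at 89.8, 96.5, 134 and 211 in the cKO libraries. In hippocampus it was 780 and 824 against 167, 380 (YC152), 152 and 256, and in olfactory bulb 318, 184 (YC150) and 189 against 63.6, 99.5 and 78.2.

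The 3′ ends of the members are shown first because the members differ in them. A 16-base stem-loop (6-base stem, 4-base loop) was found in the annotated 3′ UTR of 46 of the 68 genes, 21 to 58 bases after the stop codon. Below, capitals mark the stem and lower case the loop, 5′ to 3′ on the transcript strand.
Hist1h1e: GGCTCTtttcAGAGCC
Hist1h4d: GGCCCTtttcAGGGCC
Hist1h2bk: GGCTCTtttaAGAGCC
Hist1h4a: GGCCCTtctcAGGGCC
The first form was carried by 26 members of H1, H2A, H2B and H3, among them Hist1h1c, Hist3h2a and Hist3h2ba. The second was carried by 7 genes, all of class H4. The third occurred in 6 genes. The fourth, in Hist1h4a alone, has the stem of the second and another loop, and 4 more forms covered the remaining 6 genes. In Hist1h1e the structure lies at chr13:23621782-23621797 on the minus strand, in Hist1h4d at chr13:23581950-23581965 on the plus strand and in Hist3h2ba at chr11:58949349-58949364 on the plus strand. All these stretches are in the 3′ UTR of a single-exon gene.

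The other 22 members had no such match. In 18 of them the annotation holds fewer than 16 bases of 3′ UTR, or none, which is less than the length of the structure. Hist2h3b and Hist1h1a have 37 and 48 bases without a match. Only Hist1h2bc and Hist2h2be, both coding for H2B, have a 3′ UTR of 60 bases or more without a stem-loop. Hist1h2bc (chr13:23684199-23692908, plus strand, 2 exons) has a 742-base 3′ UTR, and Hist2h2be (chr3:96221119-96223738, plus strand, 1 exon) one of 2192 bases. The annotation also runs at least 100 bases past the loop in 23 of the 46 stem-loop genes, and a poly(A) signal follows the loop in 17. Hist1h1e, Hist1h4d, Hist3h2ba and Hist3h2a are among the 23, so a stem-loop does not by itself mark a gene without a longer annotated transcript.

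Promoters were described by histone class and set against all promoters. Members that rose and fell with age were not compared for motifs. RefSeq windows (GRCm38.p6) from 250 bases before to 50 after the start were matched for 62 of 68 members, and 20 of these windows overlap that of another member. The motif TATAAA, searched on both strands, was found in 35 of 62 (56.45%), against 13.62% of all 32851 promoters in the table. CCAAT, in either orientation, was in 53 of 62 (85.48%) against 37.41%, and of the 12 matched H4 promoters 3 held it. The octamer ATTTGCAT was in 13 of 62, namely 7 of 18 H2A and 6 of 16 H2B promoters, against 1.735% of all. AAACACA was in 5 of 6 H1 promoters against 7.184%. The 250 bases before the start are printed for an H4 gene and an H1 gene, with these motifs in capitals (ATTGG is CCAAT on the other strand).
Hist1h4d: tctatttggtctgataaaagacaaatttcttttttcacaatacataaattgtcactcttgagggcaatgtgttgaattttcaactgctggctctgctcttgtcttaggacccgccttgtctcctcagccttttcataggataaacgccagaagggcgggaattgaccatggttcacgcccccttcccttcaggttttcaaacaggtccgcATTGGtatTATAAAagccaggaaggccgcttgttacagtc
Hist1h1b: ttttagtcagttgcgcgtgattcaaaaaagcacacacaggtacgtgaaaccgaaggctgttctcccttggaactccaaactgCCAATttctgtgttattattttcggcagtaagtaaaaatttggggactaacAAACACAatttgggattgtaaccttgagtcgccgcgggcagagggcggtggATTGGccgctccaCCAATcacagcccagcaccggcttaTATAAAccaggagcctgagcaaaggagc
The first is chr13:23581318-23581567 on the plus strand and the second chr13:21780626-21780875 on the minus strand, both upstream of single-exon genes. A match in a window is a description of its letters and not a measured binding site.

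Of the 63949 histone reads in all 48 libraries, H2B genes took 50.8%, H4 20.8%, H1 13.6%, H2A 10.5% and H3 4.25%. The 12 most abundant members held 73.4%, and 8 members had no read in any library (Hist1h2ao, Hist1h2ap, Hist1h2bq, Hist1h2br, Hist1h4m, Hist2h2aa1, Hist2h3c1 and Hist2h3c2). Hist1h2bc alone held 16468 reads (25.8%) and Hist1h4d 9944 (15.5%). Per kilobase, as CPM per kilobase, averaged over the deposited tables, Hist1h2bc was at 81.2, Hist1h4d at 38.9, Hist1h2bl at 17.6, Hist1h4k at 14.2 and Hist1h1e at 14.1. A mean of at least 10 normalized reads over a table was reached by 26 members in at least 1 table and by 6 in all 6. For the developmental ages cortex kept 13 members, hippocampus 19 and olfactory bulb 14. The lowest that passed in cortex was Hist3h2a with a mean of 10.2, and the highest that did not was Hist1h2bm with 9.53.

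Near-identical copies limit how far single members can be told apart. Cutting each annotated transcript into runs of 50 bases, 35 of the 68 members had fewer than 50% of runs found in no other gene, and 24 share exon bases with another gene. Hist2h2be and Hist1h1b were fully unique, Hist1h4d 89.8% and Hist1h2bc 69.4%. Hist1h2bg was 50.3% unique with 45.0% of its runs shared with Hist1h2bc, Hist1h2bl 17.2% and Hist1h4k 28.5%. Exons of Hist1h1e and Hist1h2be overlap on the same strand, as do those of Hist3h2a and Trim17. How the authors assigned reads with several matches, or used strand, is not given in the sources used here, so values of Hist1h2bg, Hist1h2bl, Hist1h4k, Hist1h1e, Hist1h2be and Hist3h2a are uncertain as to source.

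How the summed histone level changed with age depended on the scale. As CPM, in cortex the 3 P1 libraries stood at 296, 226 and 299 CPM and the 4 P14 libraries at 273, 249, 287 and 261, which overlap. The P14 to P1 ratio of means was 0.977 ± 0.160 (SD propagated from the groups, n = 4 and 3). In hippocampus the total was 416, 379 and 409 at P1 and 196, 280 and 205 at P14, a ratio of 0.566 ± 0.117 with no overlap. In olfactory bulb it was 319, 337 and 245 at P1 and 179, 244 and 249 at P14, a ratio of 0.747 ± 0.178 with overlapping groups. The picture in cortex and hippocampus differed on the deposited normalized scale. There the cortex total was higher at P14 with no overlap (665 to 881 at P1, 970 to 1087 at P14, ratio 1.29), hippocampus overlapped (940 to 968 and 695 to 1001, ratio 0.849), and olfactory bulb overlapped as before (ratio 0.934). In bulk RNA, fewer cells of a type and less RNA per cell cannot be told apart.

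**Figure D1:**
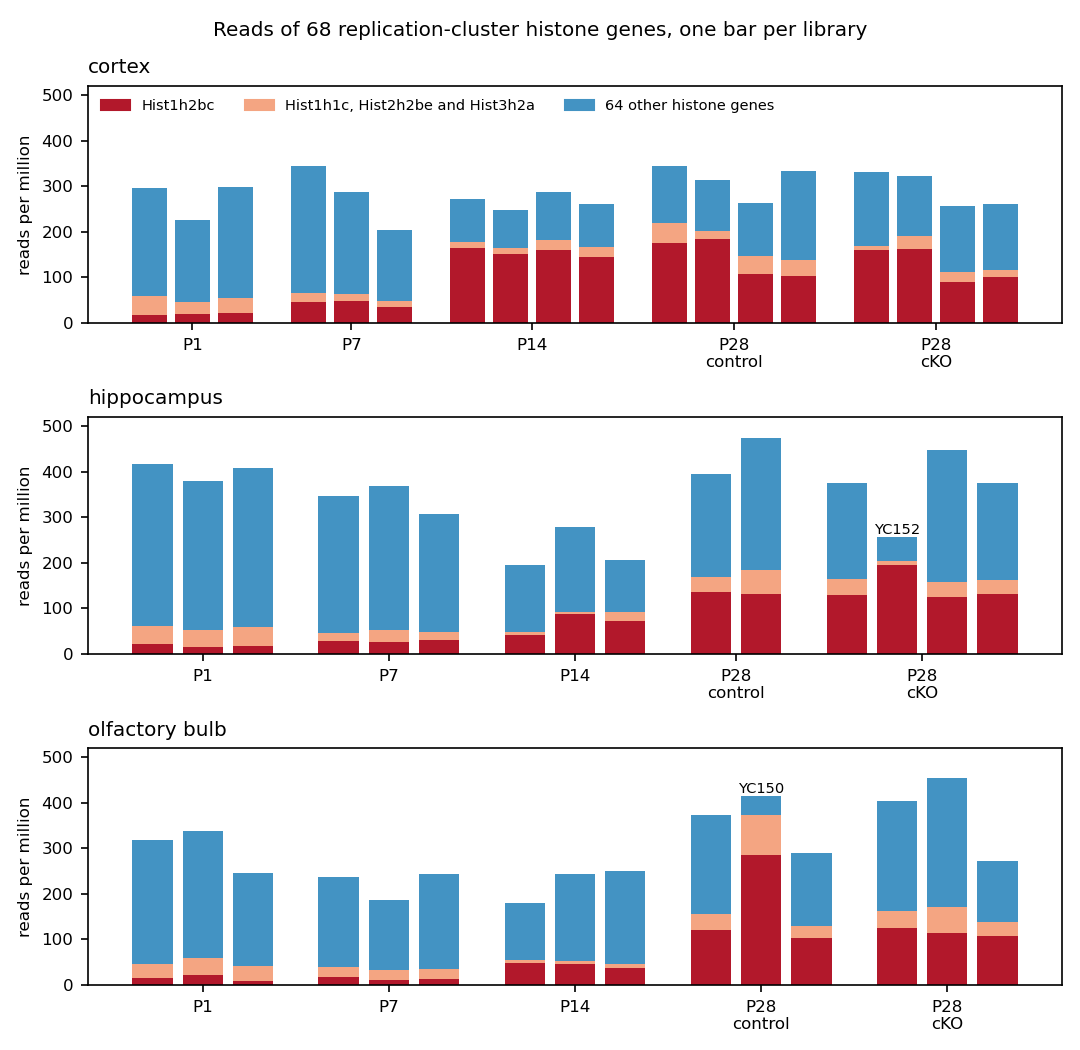
Summed CPM (gene reads without Rn45s) of the 68 histone genes, 1 bar per library, by region, age and P28 genotype. Red is Hist1h2bc, orange the other 3 genes of the polyadenylated list and blue the other 64. In cortex the bars are of similar height from P1 to P14 while the red share grows from about 7.33% to 58.2%, and in YC152 and YC150 the blue part is 51.9 and 41.1 CPM.

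On both scales cortex combined a large rise of Hist1h2bc with a lower sum of the other members. Hist1h2bc held 7.33% ± 1.55 of histone reads at P1 (SD, n = 3) and 58.2% ± 2.85 at P14 (SD, n = 4). Without it the cortex ratio of CPM was 0.441 ± 0.0882, with no overlap of the groups, and in hippocampus and olfactory bulb it was 0.416 ± 0.0805 and 0.634 ± 0.180, again with no overlap. On deposited values these ratios were 0.581, 0.623 and 0.793, and the olfactory bulb groups overlapped (554 to 727 at P1, 392 to 608 at P14). Its share rose from 4.48% to 29.5% ± 7.38 in hippocampus, and olfactory bulb went from 5.02% to 20.1% ± 6.10 (SD, n = 3 at P14). In cortex 4 genes listed as known sources of polyadenylated histone RNA (Hist1h1c, Hist1h2bc, Hist2h2be and Hist3h2a) summed to 45.7 to 59.2 CPM at P1 and 164 to 182 at P14, while the other 64 went from 180 to 245 to 84.7 to 105. The cortex rise of the 4-gene sum lay in Hist1h2bc. Hist2h2be and Hist3h2a stood lower there at P14 (limma log2 differences -0.66 and -0.85, adjusted p 0.0729 and 0.207). Hist1h1c did not pass the filter in cortex. In hippocampus the same 4 genes stood at 52.1 to 61.1 CPM at P1 and 48.2 to 92.4 at P14, which overlap. In olfactory bulb they stood at 42.1 to 59.4 and 46.1 to 55.4, which also overlap.

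By class, on the CPM scale, in cortex H1 stood at 0.554 of its P1 level at P14, H2A at 0.163, H3 at 0.279 and H4 at 0.462, and H2B at 1.91 times it, each with no overlap of the libraries. In hippocampus H1 was at 0.364, H2A at 0.295, H3 at 0.275 and H4 at 0.644 of the P1 level without overlap, and H2B at 0.889 with overlap. In olfactory bulb only H2A (0.402) and H3 (0.452) separated, while H1 (1.03), H2B (0.736) and H4 (0.982) overlapped. On deposited values the same classes separated in cortex and olfactory bulb, in the same directions, but in hippocampus H3 (0.410) and H4 (0.963) overlapped, as did H2B (1.33). Sums over members were not tested. The regions also differed in their makeup at P1: H1 took 91.5 to 113 CPM in hippocampus, 27.2 to 41.4 in cortex and 31.9 to 59.9 in olfactory bulb. These regions come from separately scaled tables and were not tested against each other.

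**Figure D2:**
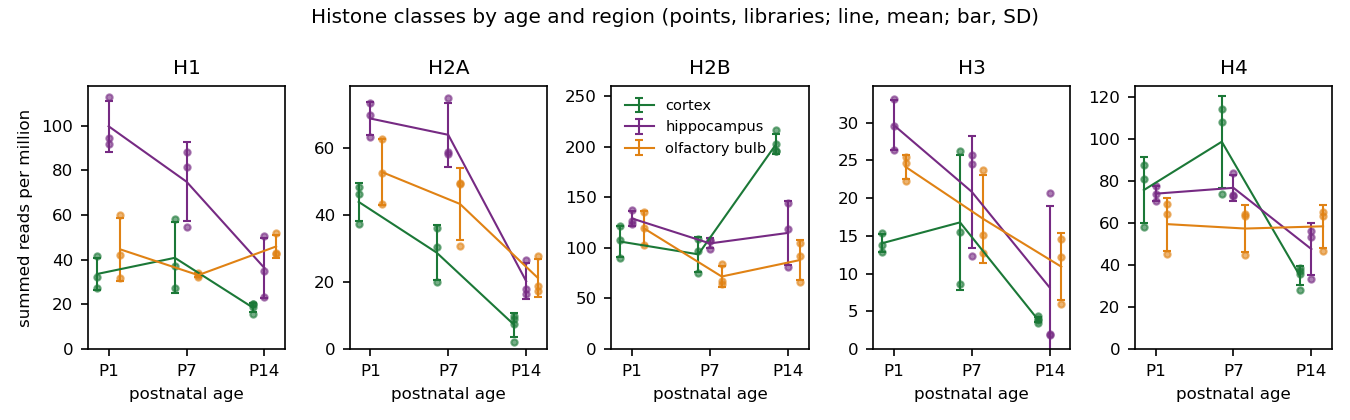
Summed CPM for each histone class at P1, P7 and P14 in cortex, hippocampus and olfactory bulb (points, libraries; lines, group means; bars, SD). H2B in cortex is the class that stands higher at P14 (1.91 times P1), while H2A and H3 are lower in the 3 regions. The SD bar of hippocampal H3 at P14 runs past 0 and is cut by the axis.

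Across all genes, P14 against P1 moved 64.4% of those tested in cortex (24.0% higher and 40.3% lower, limma on log2 of normalized reads + 1, adjusted p under 0.05), 49.5% in hippocampus (21% and 28.5%), and olfactory bulb had 56.1% (24.8% and 31.4%). Of the members that passed the filter, 7 of 13 changed in cortex (2 higher, 5 lower), 4 of 19 changed in hippocampus (1 and 3), and olfactory bulb had 7 of 14 (2 and 5). These shares are near or below the background, so the number of changed members is no result in itself. The median log2 difference was -0.63 for members and -0.27 for all genes in cortex, -0.87 and -0.29 in hippocampus, while olfactory bulb had -0.58 and -0.24. TMM scaling raised the cortex median of all genes by 0.28, to 0.01, and left 3 members higher and 3 lower there. Without a filter 29 of 59 cortex members with a read were called, 2 higher and 27 lower, against 48.3% of all genes. The same count was 8 of 58 in hippocampus against 37.6%, and olfactory bulb had 10 of 57 against 40.2%. P values here measure only the spread between libraries, since the labels do not say that these came from separate animals.

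Because the filter favours abundant genes, separation of the groups was also counted over every member with a read. In cortex 30 of 59 members were lower in all P14 libraries than in all P1 libraries, against 33.4% of all genes, and 6 were higher, against 15.8%. All 6 code for H2B: Hist1h2bc, Hist1h2be, Hist1h2bf, Hist1h2bg, Hist1h2bh and Hist1h2bp (named after their values were seen). Their share of members, 10.2%, is below that of all genes. They also share sequence: Hist1h2bf was 34.2% unique, with 47.8% of its runs shared with Hist1h2bg, and Hist1h2bp was 31.0% and Hist1h2bh 81.2% unique. Values of Hist1h2bf and Hist1h2bp are thus uncertain as to source too. In hippocampus 21 of 58 were lower (30.0% of all genes) and Hist1h2bc alone was higher (14.7%). In olfactory bulb 16 of 57 were lower (30.1%) and 2 higher (18.0%).

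Among the linker histones, Hist1h1b (chr13:21779883-21780625), which encodes the variant H1.5, was lower with age. In cortex it stood at 16.5, 9.82 and 20.5 normalized reads at P1 and 27.1, 25.5 and 11.3 at P7. At P14 it stood at 1.13, 0, 0.315 and 0.519. The P14 libraries lie below all P1 and P7 libraries, and the log2 difference from P1 was -3.47 (SE 0.51, adjusted p = 4.73e-05). In hippocampus it was 72.7, 63.7 and 71.9 at P1 and 5.37, 25.4 and 3.58 at P14 (log2 difference -2.94, SE 0.61, adjusted p = 0.00195). In olfactory bulb 28, 37.4 and 25.9 fell to 17.9, 11 and 15.3 (-1.01, SE 0.39, adjusted p = 0.0470), a call lost when any P1 library or P14 replicate 2 was left out (adjusted p 0.0746 to 0.177). It was also lost with edgeR and DESeq2 (adjusted p 0.0582 and 0.0506), a pseudocount of 0.1, no filter or only the 2 ages compared.

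Hist1h1e (H1.4; chr13:23620629-23622558, minus strand) was the most abundant linker gene and followed another course. Cortex libraries held 59.9, 56.7 and 85.7 normalized reads at P1 and 60.5, 62.3, 53.9 and 53.0 at P14 (log2 difference -0.21, adjusted p = 0.503). In olfactory bulb it was 49.8, 65.6 and 35.3 at P1, 39.3, 42.9 and 38.6 at P7, and 71.6, 84.1 and 112 at P14, so that P14 lay above both earlier ages. The P14 to P1 difference was 0.84 (SE 0.30, adjusted p = 0.0315), and this call was lost without P1 replicate 1, P1 replicate 3 or P14 replicate 3 (adjusted p 0.0769, 0.142 and 0.0756). It was also lost with only the 2 ages compared (adjusted p = 0.0608). The difference from P7, 1.11, kept its call in every alternative run. Hist1h1c, Hist1h1d and Hist1h1a ranged from 0 to 22.1 normalized reads in the developmental libraries, and none of them was called for P14 against P1 where tested. Hist1h1c did not pass the filter in hippocampus, where it had 58, 39 and 29 reads at P1 and 1, 1 and 2 at P14. Its normalized reads there were lower at P14 with no overlap, as for 30.0% of all genes. Hist1h1d in hippocampus (-1.76, adjusted p = 0.0608) was called as lower without P14 replicate 2 (-2.56, adjusted p = 0.00269). Hist1h1t, the testis form, had 10 reads in all and none at P1 to P14.

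H2A genes were called only downward. Hist1h2ak in cortex stood at 19.0, 20.9 and 24.4 normalized reads at P1 and 4.16, 0, 4.73 and 2.08 at P14 (log2 difference -2.85, SE 0.58, adjusted p = 0.000719), with no overlap. Hist3h2a in olfactory bulb went from 21.5, 17.6 and 17.1 to 0, 2.76 and 1.39 (-3.24, SE 0.58, adjusted p = 0.000703). In cortex Hist3h2a was at 13.9, 16.1 and 15.1 at P1 and 6.43, 3.77, 13.9 and 10.9 at P14 and did not pass the test (-0.85, adjusted p = 0.207). Hist1h2ai in olfactory bulb (-1.58, SE 0.61, adjusted p = 0.0460) lost its call when any P1 library or P14 replicate 1 was left out (adjusted p 0.0911 to 0.147). Its call was also lost with edgeR and DESeq2 (adjusted p 0.0688 and 0.0596), a pseudocount of 0.1, no filter or only the 2 ages compared. Reads of Hist1h2ak and Hist1h2ai are 43.0% and 9.88% unique by the measure above.

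Within H2B, genes moved in opposite directions. Hist1h2bc rose in the 3 regions. In cortex it went from 51.7, 59.9 and 61.8 normalized reads at P1 through 138, 152 and 106 at P7 to 630, 594, 608 and 576 at P14, with each age above the one before. The P14 to P1 log2 difference was 3.36 (SE 0.13, adjusted p = 2.26e-10), and the P7 to P1 difference 1.17 (adjusted p = 3.29e-05). In hippocampus 50.2, 39.2 and 39.3 became 148, 315 and 263 (2.41, SE 0.30, adjusted p = 4.42e-05). In olfactory bulb 37.6, 49.3 and 21.5 became 143, 135 and 106 (1.86, SE 0.33, adjusted p = 0.000700), with P7 at 39.9, 27.2 and 30.8. These 3 calls held under every alternative run, with differences of 3.21 to 3.64, 2.19 to 2.73 and 1.54 to 2.12.

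Hist1h2bg, which shares 45.0% of its runs with Hist1h2bc, rose in cortex from 8.24, 8.06 and 9.75 to 31.4, 32.1, 32.8 and 34.3 (1.80, SE 0.31, adjusted p = 0.000181). In hippocampus it was at 7.52, 14.3 and 30.5 at P14, against 9.62, 11.1 and 11.1 at P1 (adjusted p = 0.513). The other H2B gene with a long 3′ UTR and no stem-loop, Hist2h2be, did not follow Hist1h2bc: in olfactory bulb it fell from 38.0, 50.6 and 55.2 to 3.98, 5.51 and 16.7 (-2.54, SE 0.50, adjusted p = 0.00128). In cortex it was at 99.4, 54.4 and 76.2 at P1, 40.4, 34.8 and 22.7 at P7 and 38.6, 32.1, 55.2 and 70.1 at P14. There the P7 difference passed the test (-1.21, adjusted p = 0.0116; 0.0558 without P1 replicate 1) and the P14 difference did not (-0.66, adjusted p = 0.0729). It passed without P1 replicate 2 (adjusted p = 0.0381) or P14 replicate 4 (0.0269). In hippocampus Hist2h2be was not called for P14 against P1 (-1.40, adjusted p = 0.0599). There it was called as lower without P14 replicate 3 (-2.11, adjusted p = 0.0016) and with a pseudocount of 8 (-1.10, adjusted p = 0.0496).

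Hist3h2ba (chr11:58948920-58949533, plus strand), the H2B gene of the small Hist3 cluster, fell early. Cortex values were 88.4, 54.4 and 67.2 at P1, 12.7, 10.8 and 6.34 at P7, then 0.378, 8.80, 12.9 and 5.19 by P14. The log2 difference from P1 was -2.72 at P7 (adjusted p = 0.00718) and -3.58 at P14 (SE 0.63, adjusted p = 0.000225). Hippocampus went from 43.4, 32.5 and 61.4 to 0, 2.21 and 3.58 (-4.21, SE 0.64, adjusted p = 0.000224), and olfactory bulb from 107, 108 and 75.6 to 15.9, 23.4 and 22.2 (-2.19, SE 0.34, adjusted p = 0.000246). No P14 library reached a P1 library in any region. Hist1h2bm fell in hippocampus from 16, 22.3 and 25.8 to 14, 6.62 and 1.79 (-1.69, SE 0.65, adjusted p = 0.0480), a call lost with any P1 library or P14 replicate 3 left out (0.0816 to 0.146). It was also lost with edgeR, DESeq2 and TMM scaling (adjusted p 0.103, 0.0863 and 0.0516). The same held for a pseudocount of 0.1, no filter or only the 2 ages compared. Hist1h2be, Hist1h2bk and Hist1h2bl were not called for P14 against P1. In cortex Hist1h2be was called as higher under TMM scaling, edgeR and DESeq2 (0.78 to 0.80) and by limma without a trend (0.53). In olfactory bulb it was called as higher by edgeR, DESeq2 and without P14 replicate 1 (1.42, 1.42 and 1.77). Hist1h2bl in hippocampus was called as lower by limma without a trend (-0.87) and without P14 replicate 1 (-1.02).

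The H3 class was thin: Hist1h3e in olfactory bulb was the only H3 gene that passed the filter in a developmental table, and it was not called (-1.31, adjusted p = 0.237). Among H4 genes, Hist1h4d (chr13:23581598-23582735, plus strand) stayed abundant. In cortex it held 193, 142 and 221 normalized reads at P1, 265, 259 and 189 at P7, then 121, 96.8, 128 and 129 by P14. The P14 values lie below all earlier ones (P14 against P1: -0.63, SE 0.18, adjusted p = 0.00645), but the call was lost with TMM scaling, edgeR or DESeq2 (-0.35, -0.42 and -0.40, adjusted p 0.105, 0.0537 and 0.0634). In hippocampus it was 124, 130 and 139 at P1 and 174, 154 and 71.7 at P14 (-0.07, adjusted p = 0.861), and in olfactory bulb 113, 100 and 59.0 against 105, 143 and 124 (0.49, adjusted p = 0.177). Hist1h4c fell in cortex from 17.6, 9.82 and 18.2 to 6.43, 5.03, 6.31 and 5.19 (-1.23, SE 0.40, adjusted p = 0.0162), a call lost without P1 replicate 1 or 3 (adjusted p 0.0664 and 0.0710). It was also lost with TMM scaling (adjusted p = 0.05004).

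**Figure D3:**
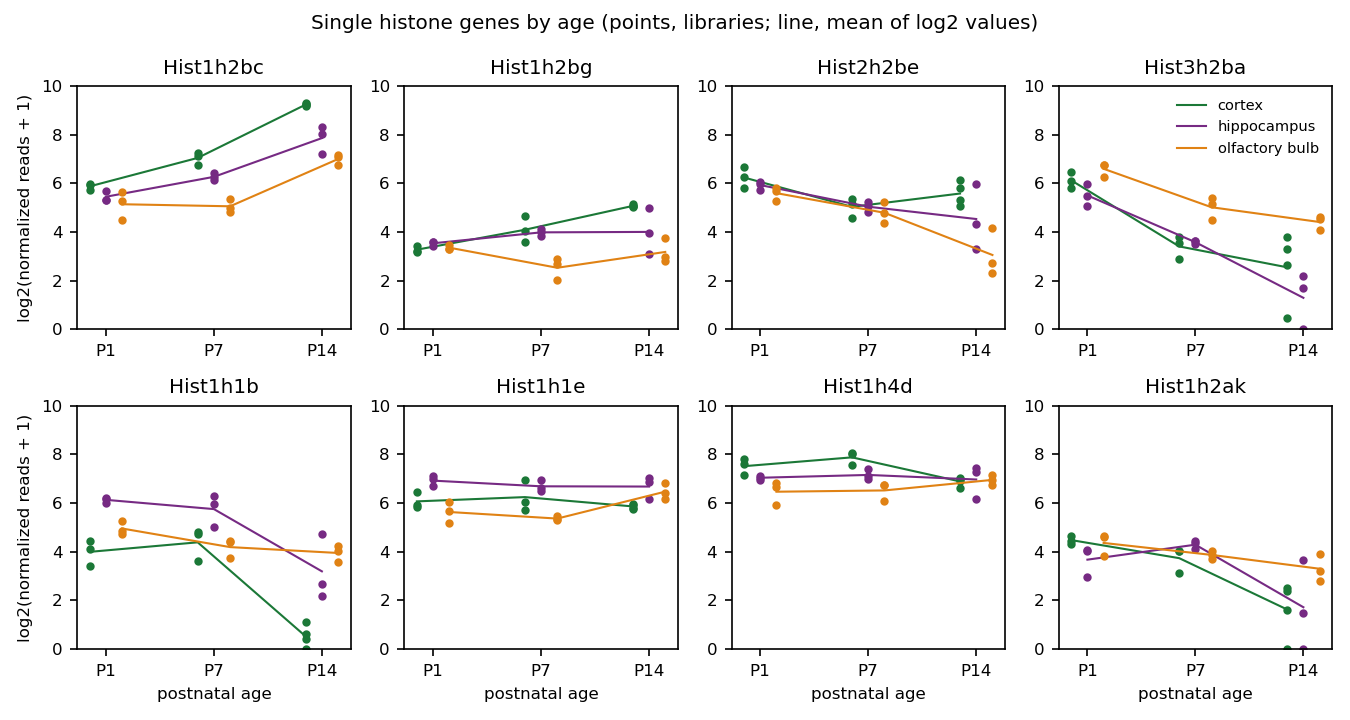
Normalized reads of 8 histone genes on the log2(value + 1) scale at P1, P7 and P14 (points, libraries; lines, means). Hist1h2bc rises in the 3 regions, Hist3h2ba falls in the 3, and Hist2h2be is lowest at P14 in olfactory bulb.

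**Figure D4:**
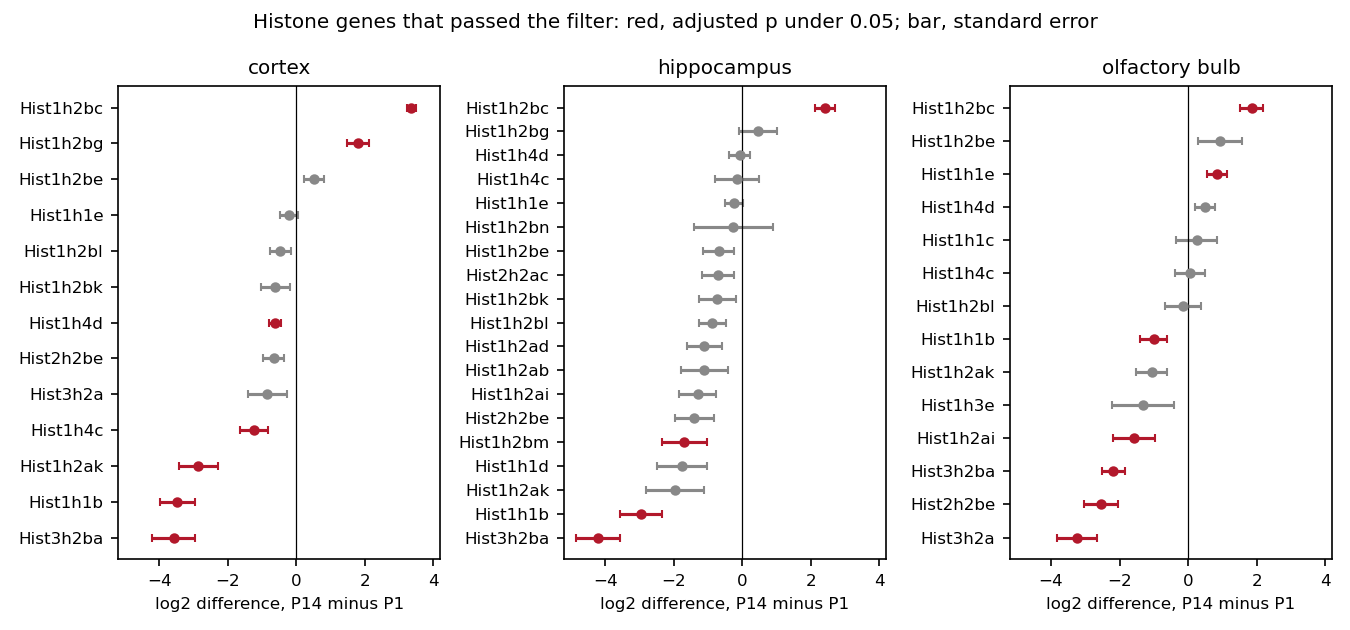
Log2 difference between P14 and P1 for each member that passed the filter, by region, with its standard error (limma; red, adjusted p under 0.05). Hist1h2bc is highest and Hist3h2ba lowest in cortex (3.36 and -3.58) and hippocampus (2.41 and -4.21), and Hist3h2a is lowest in olfactory bulb (-3.24).

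The steps between neighbouring ages placed these changes. From P1 to P7, the share of all tested genes called was 33.7% in cortex (15.6% higher, 18.1% lower), 18.1% in hippocampus (11.2% and 6.92%), and olfactory bulb had 10.6% (7.59% and 2.98%). Without a filter it was 20.2% in cortex, with 5 of 59 members. Of members, 3 of 13 were called in cortex (Hist1h2bc higher, Hist3h2ba and Hist2h2be lower) and 1 of 14 in olfactory bulb, Hist3h2ba (-1.58, adjusted p = 0.0131). The latter was lost without P1 replicate 1, P1 replicate 2 or P7 replicate 2 (0.0734, 0.0745 and 0.0689). In hippocampus limma called 0 of 19, with 2 at an unadjusted p under 0.05, Hist1h2bc (adjusted p = 0.0833) and Hist3h2ba (0.0606), while edgeR called 1 and DESeq2 2.

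From P7 to P14, 6 of 13 members were called in cortex, against 49.8% of all genes (18.6% higher, 31.3% lower). Without a filter it was 26 of 59 members against 34.4%. In hippocampus 4 of 19 members were called against 30.1% (12.5% and 17.7%), and in olfactory bulb 4 of 14 against 47.0% (20.4% and 26.6%). Hist1h2bc was higher in the 3 regions (2.19, 1.59 and 1.94). Cortex Hist1h2bg (0.98) and olfactory bulb Hist1h1e (1.11) were also higher. Lower were Hist1h1b (-3.87), Hist1h2ak (-2.11), Hist1h4c (-1.82) and Hist1h4d (-0.99) in cortex. In hippocampus Hist1h2ak (-2.57), Hist1h1b (-2.56) and Hist3h2ba (-2.29) were lower, and in olfactory bulb Hist3h2a (-3.08) and Hist2h2be (-1.73). The hippocampal count was 2 without any 1 of the 3 P7 libraries, where Hist1h2ak and Hist3h2ba lost their calls. Both were also lost with a pseudocount of 0.1. Hist1h2ak was lost as well with edgeR and DESeq2 (adjusted p 0.132 and 0.102), without P14 replicate 2 or 3, and with only the 2 ages compared. Cortex Hist1h2bg lost its call without P7 replicate 3 (adjusted p = 0.104). Olfactory bulb Hist2h2be lost its call without P7 replicate 3 (0.0672) or with only the 2 ages compared (0.0648).

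Genes outside the clusters that serve the same pathway were read from fixed lists in the P14 to P1 comparison. Of 11 replacement histone genes, 10 were tested in each region and 8, 7 and 6 fell (cortex, hippocampus, olfactory bulb), with none higher, where 40.3%, 28.5% and 31.4% of all genes fell. H3f3b, which encodes H3.3, fell by 1.41, 1.60 and 1.22 on the log2 scale, and H2afz, which encodes H2A.Z, by 1.74, 1.76 and 2.34. Of histone chaperones, which carry histones to DNA, 8 of 11, 11 of 12 and 8 of 12 fell, among them Nasp (-2.01, -1.39 and -1.60), a carrier of H3 and H4. Of the factors that make histone messenger RNA, 6 of 11, 4 of 11 and 4 of 9 fell, shares nearer to those of all genes. Slbp fell in cortex (-0.76, adjusted p = 0.0402) and had values of -0.65 (0.180) and -0.20 (0.578) elsewhere. Casp8ap2 and Eri1 fell in the 3 regions. Cstf2, a cleavage factor, was higher in hippocampus and olfactory bulb (1.04 and 0.84), and Cpsf3 in hippocampus (0.51).

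Most cell cycle genes tested were called lower as well, except the mitosis genes in olfactory bulb. S phase genes fell in 23 of 25, 17 of 27 and 15 of 25 tested, with medians of -1.87, -1.41 and -1.34. Mitosis genes fell in 16 of 16, 14 of 18 and 1 of 16, with medians of -2.52, -2.16 and -0.53. Of all genes tested, 40.3%, 28.5% and 31.4% fell. The summed mitosis list was 573 to 863 CPM at P1 and 55.5 to 116 at P14 in cortex, 1437 to 1600 and 210 to 475 in hippocampus, with 932 to 994 and 430 to 753 for olfactory bulb. The part of dividing cells in the histone changes was not tested.

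Markers of other cells also moved between these ages. The 10 neuron markers summed to 3420 to 4682 CPM at P1 and 443 to 552 at P14 in cortex, 3681 to 4203 and 658 to 707 in hippocampus, with 7489 to 8996 and 1544 to 1925 for olfactory bulb, with 8, 8 and 7 of 10 lower. The 10 neuroblast and progenitor markers summed to 3638 to 5597 and 393 to 444 in cortex, 8208 to 10792 and 709 to 979 in hippocampus, with 13441 to 14094 and 1402 to 1960 for olfactory bulb. There 8 of 9, 8 of 10 and 9 of 10 tested were lower, and Dlx1 had no read in hippocampus at P14. Mature oligodendrocyte markers went the other way, with 117 to 140 at P1 and 4003 to 6743 at P14 in cortex (7 of 8 higher). In hippocampus 4 of 4 tested were higher, and in olfactory bulb 5 of 5. Microglia markers were higher for 9 of 9, 4 of 6 and 5 of 6 tested. Their part in the histone changes was not tested.

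At P28 no member was called between Gabbr1 cKO and control in any region by limma, edgeR or DESeq2, at a background of 0.00982% in cortex (Gabbr1 alone), while hippocampus and olfactory bulb each had 0.0%. At an unadjusted limma p under 0.05 there was 1 of 8 members tested in cortex, and there were 0 of the 17 tested for hippocampus and 0 of the 11 for olfactory bulb. Gabbr1 itself was called in cortex (-3.45, SE 0.29, adjusted p = 4.4e-05) and not in hippocampus (-1.84, SE 0.39, adjusted p = 0.936) or olfactory bulb (-1.48, SE 0.33, adjusted p = 0.877). In those 2 regions the test thus missed the targeted gene, and its silence on histones carries little weight. The 1 cortex member was Hist2h2be, at 93.0, 30.4, 58.1 and 58.1 normalized reads in controls and 8.98, 38.8, 37.6 and 26.9 in cKO (-1.15, unadjusted p = 0.0329), with overlapping groups.

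Hist1h2bc in cortex at P28 was not called between the genotypes, and the groups overlapped over the libraries of both deposits. Within each deposit its cKO values were the lower ones. How many of all genes separate in this way within deposits was not counted, so this order is a description only. The first deposit held controls at 438 and 468 and cKO at 393, 378 and 213, and the second held controls at 235 and 216 and a single cKO at 202. The log2 difference was -0.18 (adjusted p = 1.00) and, with the deposit as a covariate, -0.39 (adjusted p = 0.779). The summed histone level was 314 ± 35.6 CPM in cortex controls and 293 ± 39.9 in cKO (SD, n = 4 each). In hippocampus it was 434 ± 55.0 (n = 2) and 363 ± 79.2 (n = 4), or 399 ± 41.5 (n = 3) without YC152. In olfactory bulb it was 359 ± 63.4 and 377 ± 94.3 (n = 3 each), with controls at 332 ± 59.5 (n = 2) without YC150. The differences are within the spread of the libraries. The median log2 difference of members tested was -1.12 in hippocampus (17 members), and -0.39 (20 members) with YC152 left out. In olfactory bulb it was 1.18 (11 members), and 0.21 (12 members) with YC150 left out. The filter was applied again each time, so the sets of members differ.

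YC152 and YC150, set beside the 5 other P28 libraries of their region, had more Hist1h2bc and low levels of most other members. Reads below 3 were set to a floor of 3, and the genes counted had a median of at least 3 CPM and of 4 times that floor in the others. Of these, 10 of 15 members were at least 4-fold lower in YC152, against 20% of all such genes, and 5 of 8 in YC150, against 11.9%. Any other P28 library of these regions had 0 to 2 such members. Higher by 4-fold, among genes with a median of at least 3 CPM, was Hist1h4k in YC152 (1.54% of all genes) and no member in YC150 (2.53%). These are comparisons of 1 library each, with no replicate check.

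The total level alone did not show this. It was 256 CPM in YC152 and 414 in YC150. The 4 listed genes summed to 204 and 373 CPM, above the 158 to 184 and 129 to 170 of the other libraries, but most of this was Hist1h2bc (196 and 285). In YC152 the other 3 were lower than the median of the others: Hist1h1c at 0 (6.25), Hist2h2be at 6.45 (19.0) and Hist3h2a at 1.36 (4.48). In YC150 Hist1h1c was at 0 (3.42) and Hist3h2a at 0.54 (3.44), while Hist2h2be was higher. The other 64 summed to 51.9 and 41.1, below the 211 to 289 and 134 to 284 seen elsewhere. Hist1h2bc made up 76.7% and 68.9% of histone reads. A read was found for 19 and 17 members, against 31 to 58 in the 46 other libraries.

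Hist1h4d, the most abundant H4 gene, had 4 reads in YC152, or 1.36 CPM against a median of 54.1 (37.4 to 83.3). In YC150 it had 0 reads against a median of 63.0 (35.5 to 71.2), at least 38.9-fold lower with a floor of 3 reads in that library. Hist1h1e had 3 reads in YC152 against a median of 36.8 CPM, and 2 in YC150 against 18.1. Both genes carry the stem-loops printed above, and H1 in all held 1.02 and 2.16 CPM in these libraries.

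Hist1h2bc stood at 196 CPM in YC152 (median of the others 131, range 125 to 137) and at 285 in YC150 (114, range 102 to 126). Hist2h2be, also without a stem-loop, was at 87.0 in YC150 (161 reads) against 29.0 (19.4 to 45.2), but at 6.45 in YC152 against 19.0, so the pair did not move together. Hist1h4k, an H4 gene with a 312-base model and no annotated UTR, had the highest ratio in both: 32.6 CPM (96 reads) against 6.0 (3.96 to 8.63) in YC152 and 19.4 (36 reads) against 5.15 (4.2 to 6.51) in YC150. With 28.5% of its runs unique, its reads may belong to another gene. Next by ratio in YC152 were Hist1h2ac (0.76, 3 reads), Hist1h2bb (0.57, 4 reads) and Hist1h2be (0.43, 28 reads). In YC150 they were Hist1h2bp (1.43, 8 reads), with Hist1h3d (3 reads) and Hist1h2ab (2 reads) tied at 1.42. Apart from that of Hist1h2be, these ratios rest on very few reads, some at or below the floor of 3.

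Other RNAs in the same libraries give a scale. H3f3b was at 168 CPM in YC152 (median of the others 154) and 223 in YC150 (164), and H2afy, a macroH2A gene, at 52.3 (31.3) and 66.4 (39.4). H3f3a was lower at 151 (402) and 158 (343), and H2afz at 16 (119) and 23.2 (93.4). H2afj was lower at 0.339 (7.91) and 0 (10.3), and H2afx at 5.43 (16.4) and 0 (14.7). H1f0 was at 78.7 (107) and 71.8 (51.7), and H2afv at 29.9 (30.9) and 18.9 (49.7). Replacement histone genes thus went in different directions, although most are known for polyadenylated transcripts. Of 22 RNAs listed as lacking a poly(A) tail, 13 are in the tables and 4 had a median above 3 reads in the others. Of these, Rmrp and Rpph1 had 0 reads in both libraries, which at a floor of 3 reads is at least 5.77-fold and 2.09-fold lower in YC152 and 7.52-fold and 2.34-fold lower in YC150. Malat1 was at 38290 (16783) and 7925 (19293), in opposite directions, and Neat1 at 211 (249) and 50.8 (94.9). Among the other 9, Rn4.5s had 85 reads in YC150 (45.9 CPM, median 0.77) and Snord118 had 6 in YC152 (2.04 CPM, median 0.26), both higher than in the others, so the list did not move one way. How these libraries were made differently, if at all, is not given in the sources used here.

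**Figure D5:**
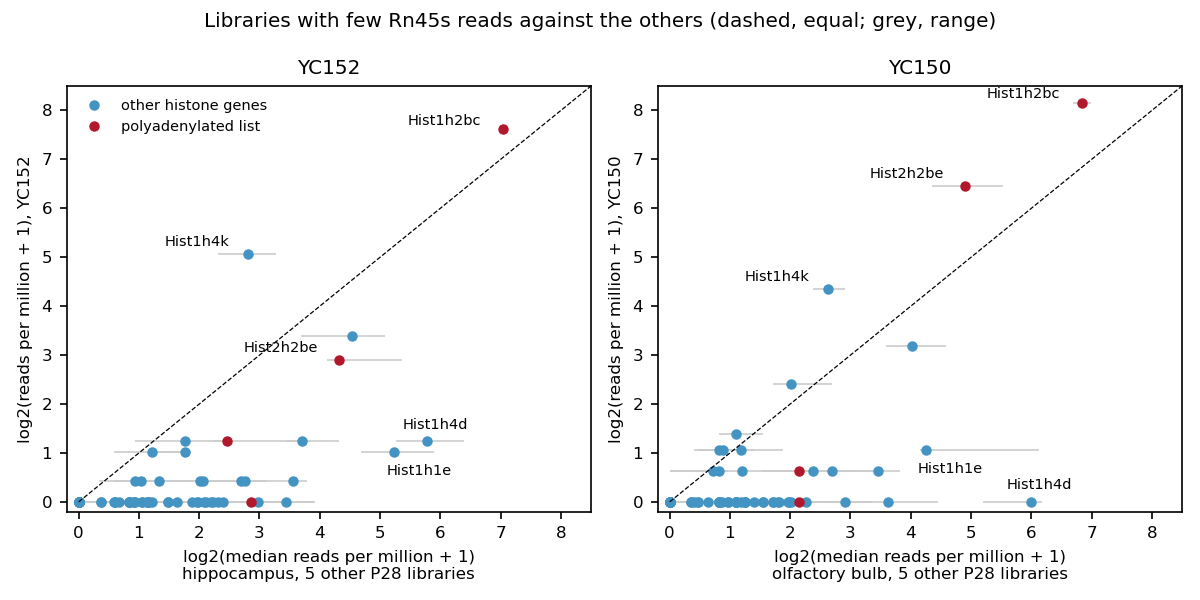
Each histone gene in YC152 and YC150 (vertical, log2 of CPM + 1) against the median of the 5 other P28 libraries of the region (horizontal, same scale; grey lines, their range; dashed line, equal levels). Hist1h2bc and Hist1h4k lie above the dashed line in both, and Hist1h4d and Hist1h1e lie far below it.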

How the data were processed

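Libraries were made from 500pg to 1ng of total RNA with the Trio RNA-seq (Nugen) kit, per the labels' protocols. STAR 2.5.0a, DESeq2 1.20.0, FastQC, MultiQC and build mm10 are named in the submitters' processing notes. The authors deposited 6 tables, 1 per region and age set, and their unit is a normalized signal for each gene. Every value was a whole multiple of 1 step per library, so reads were recovered (100% of values within 0.1 read of a whole number). Counting, strand use and the treatment of reads with several matches are not given in the sources used here.

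Genes with a table mean of at least 10 were compared as log2(value + 1) with limma 3.58.1 (trend, R 4.3.3) in 12 comparisons, within tables, with Benjamini-Hochberg adjustment over all genes tested and a threshold of 0.05. CPM were computed from the reads recovered from the deposited values, leaving out Rn45s. Differences on the log2 scale understate changes of low genes. edgeR 4.0.16 and DESeq2 1.42.0 on recovered reads were alternatives, beside pseudocounts, filters, scalings and left-out libraries. The procedure was tested on simulated data. Groups came from age, tissue and genotype labels.

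Named members are the 12 most abundant, all linker genes, and the 4 largest rises and falls among called members for P14 against P1. The 5 highest ratios in YC152 and YC150 (with a tie in YC150) and the polyadenylated and germline lists were also named. Members, lists and tests were chosen with earlier results of these data known. The exact permutation test planned for members under the filter was not run, and those members are given as values or as counts of separated groups. Level ratios, stem-loops, unique runs and promoter motifs are descriptions.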

Additional observations from a re-analysis of the deposited data

Results flagged for a closer look

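In groups of 4 libraries, a single library stood far from the other 3 in 6 of 60 checks (10%), where chance gives about 1 in 20. In cortex P28 controls, replicate 4 had the highest summed level of the 64 members outside the polyadenylated list, 196 CPM. In cortex P28 cKO, replicate 2 was highest for Hist1h2be at 35.7 normalized reads and replicate 4 for Hist1h1b at 9.59. Replicate 4 is the single cortex cKO library of the second deposit. The cortex controls also held more Hist1h1b in that deposit (5.48 and 15.9) than in the first (0 and 4.23). In hippocampus P28 cKO, replicate 2, which is YC152, was highest for the polyadenylated list at 204 CPM, for Hist1h2bc at 835 normalized reads and for Hist1h4k at 139.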

How the results depend on the processing

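No paired analysis was possible because the labels carry no replicate numbers. Of 36 calls of named members, 24 held under every alternative in which the gene was tested. No called difference changed sign. Counts of called members that moved by more than 1.5 times were these. Without a filter, P14 against P1 gave 29 in cortex and 8 in hippocampus, cortex P7 against P1 gave 5 and cortex P14 against P7 gave 26. With a mean of at least 100, cortex gave 2 (P14 against P1), 1 (P7 against P1) and 2 (P14 against P7), hippocampus 1 (P14 against P1) and 1 (P14 against P7), and olfactory bulb 0 in each of its 3 comparisons, since few members reach that mean. Hippocampus without the trend gave 7 (P14 against P1), 1 (P7 against P1) and 7 (P14 against P7). Hippocampus P7 against P1 gave 1 with a pseudocount of 8, 1 with edgeR, 2 with DESeq2 and 4 with only the 2 ages compared, and hippocampus P14 against P7 gave 2 with a pseudocount of 0.1 and 2 with only the 2 ages. With only the 2 ages, olfactory bulb gave 4 (P14 against P1), 2 (P7 against P1) and 2 (P14 against P7). Leaving out 1 library gave 3 to 9 calls for hippocampus P14 against P1 (8, 9 and 7 without P14 replicates 1, 2 and 3) and 2 to 6 for hippocampus P14 against P7. It gave 4 to 7 for olfactory bulb P14 against P1 (4 without P1 replicate 1 or 3) and 0 to 1 for olfactory bulb P7 against P1. The total level, P14 over P1, on deposited values was 1.29 (cortex), 0.849 (hippocampus) and 0.934 (olfactory bulb). Without Hist1h2bc the ratio of CPM was 0.441 in cortex and 0.416 in hippocampus, and on deposited values 0.581 and 0.623. The cause of these shifts was not tested. P28 calls of members stayed at 0 in every alternative run. At 269 to 3448 histone reads per library, 16 members had under 100 reads in all, and single low members were measured with little precision.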

Other observations

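Hist1h2ba and Hist1h2aa, known from testis, were near the limit of detection. Hist1h2ba ranged from 0 to 7.12 normalized reads over the 48 libraries, and Hist1h2aa had a read in 2 of them. Split by annotated 3′ end, the 23 stem-loop genes with at least 100 bases after the loop gave a cortex sum of 148 ± 25.2 CPM at P1 and 74.0 ± 6.56 CPM at P14 (SD over 3 and 4 libraries). The 23 with a shorter end summed to 38.5 ± 5.21 and 15.2 ± 1.98, and the 20 with no loop and a short UTR to 41.3 ± 5.73 and 10.03 ± 1.94. The pair without a loop and with a long UTR went from 45.7 ± 6.45 to 168 ± 7.31. The genes of that pair differed in cortex: Hist1h2bc rose (log2 difference 3.36), while Hist2h2be stood lower without a call (-0.66).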
